A study of Mus musculus with 16 samples.

Results

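The olfactory mucosa of odor-exposed mice was sorted by flow cytometry into a GFP-negative and a GFP-positive fraction, and this comparison sets the 2 fractions of each pool side by side. It holds 8 of the 16 Clariom S arrays of the series, chosen by their titles: Odor replicates 1 to 4 with GFP- in the title against the same replicates with GFP+ in the title. All mice were S100a5-tauGFP on a C57BL/6 background, of both sexes, 7 to 12 weeks old, and each array carried RNA of cells from 3 pooled mice. They spent 40 h singly in clean air chambers at 3.1 L/min. After the first 26 h the odor mice received a mixture of undecanal and bourgeonal, 2 aldehyde odorants, in pulses of 10 s every 20 min. The vehicle mice, on the other 8 arrays, received filtered air on the same schedule. With 24 mice in all and 3 to an array, 16 arrays cannot be filled unless the fractions share mice, so the 2 arrays of a replicate number were taken as 1 pair, called odor pools 1 to 4.

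The sample labels contradict each other. On every array the cell type field states the opposite GFP status from the title. Groups here follow the titles and are written "titled GFP-" and "titled GFP+". All differences are log2 signal in titled GFP- minus log2 signal in titled GFP+, so under the cell type field a positive value would be higher in the GFP-positive sort. How the tauGFP allele alters the S100a5 gene, and which part of the gene the array probes read, are not given in the sources used here.

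Olfactory sensory neurons renew throughout life from progenitors at the base of the epithelium. Each mature neuron transcribes 1 allele of 1 odorant receptor gene, and its axon converges with those of other neurons of the same receptor. Odor binding raises cAMP through a G protein and adenylyl cyclase, which opens a cation channel and a calcium-activated chloride channel. Repeated activity changes the transcription of a small set of genes in mature neurons; S100a5, a calcium-binding protein, is one that rises with odor-evoked activity, and this is what a GFP reporter of S100a5 is used for. The mucosa also holds sustentacular cells, microvillar cells, Bowman glands, basal stem cells and immune cells. A lower signal in a sorted fraction can come from fewer cells of a type or from less RNA per cell, and these cannot be told apart in bulk samples.

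S100a5 was measured first, since it bears on the labels. Its log2 signal was 17.08, 16.46, 16.56 and 16.51 in titled GFP- pools 1 to 4 and 14.65, 15.75, 15.48 and 15.48 in titled GFP+ pools 1 to 4. Every titled GFP- array was above every titled GFP+ array, and pool 1 held both the highest and the lowest value. The difference was 1.31 ± 0.20 (limma, Benjamini-Hochberg adjusted p = 1.55e-04), and 0.94 (adjusted p = 1.51e-04) without odor pool 1. Here and below, ± is the limma SE with n = 4 arrays per group. It rests on the spread within groups over all 16 arrays and does not use the pairing. The S100a5 transcript thus ran against the titles and with the cell type field. Omp, the marker protein of mature olfactory neurons, was at 18.47, 18.58, 18.54 and 18.58 against 18.31, 18.51, 18.51 and 18.38. The groups overlapped within a narrow range. The Omp difference of 0.12 ± 0.10 did not pass (adjusted p = 0.418) turned to -0.35 when arrays were centred on the receptor median, and was 0.42 (adjusted p = 0.0045) when they were centred on the median of all features.

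The titled GFP+ array of odor pool 1 stood apart from the other arrays of its group. Over all tested features it correlated with them at r = 0.979 to 0.984, against 0.989 to 0.995 among the other 3, and 0.99 to 0.993 within titled GFP-. Fewer olfactory receptors were above background there: 611, 762, 772 and 831 of 1080 in titled GFP+ pools 1 to 4, against 706, 797, 746 and 787 in titled GFP-. Background was the 95th percentile of 23 background probe sets on each array and lay between 6.87 and 7.41. The median of all tested features was 6.80, 6.82, 6.76 and 6.84 in titled GFP- and 7.12, 7.11, 7.10 and 7.10 in titled GFP+, without overlap (2-sided exact permutation test, p = 0.0286, the smallest that 4 against 4 allows). The receptor median was 8.69, 9.21, 9.10 and 9.26 against 7.94, 8.82, 8.71 and 8.92, with overlap (exact p = 0.114).

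**Figure D1:**
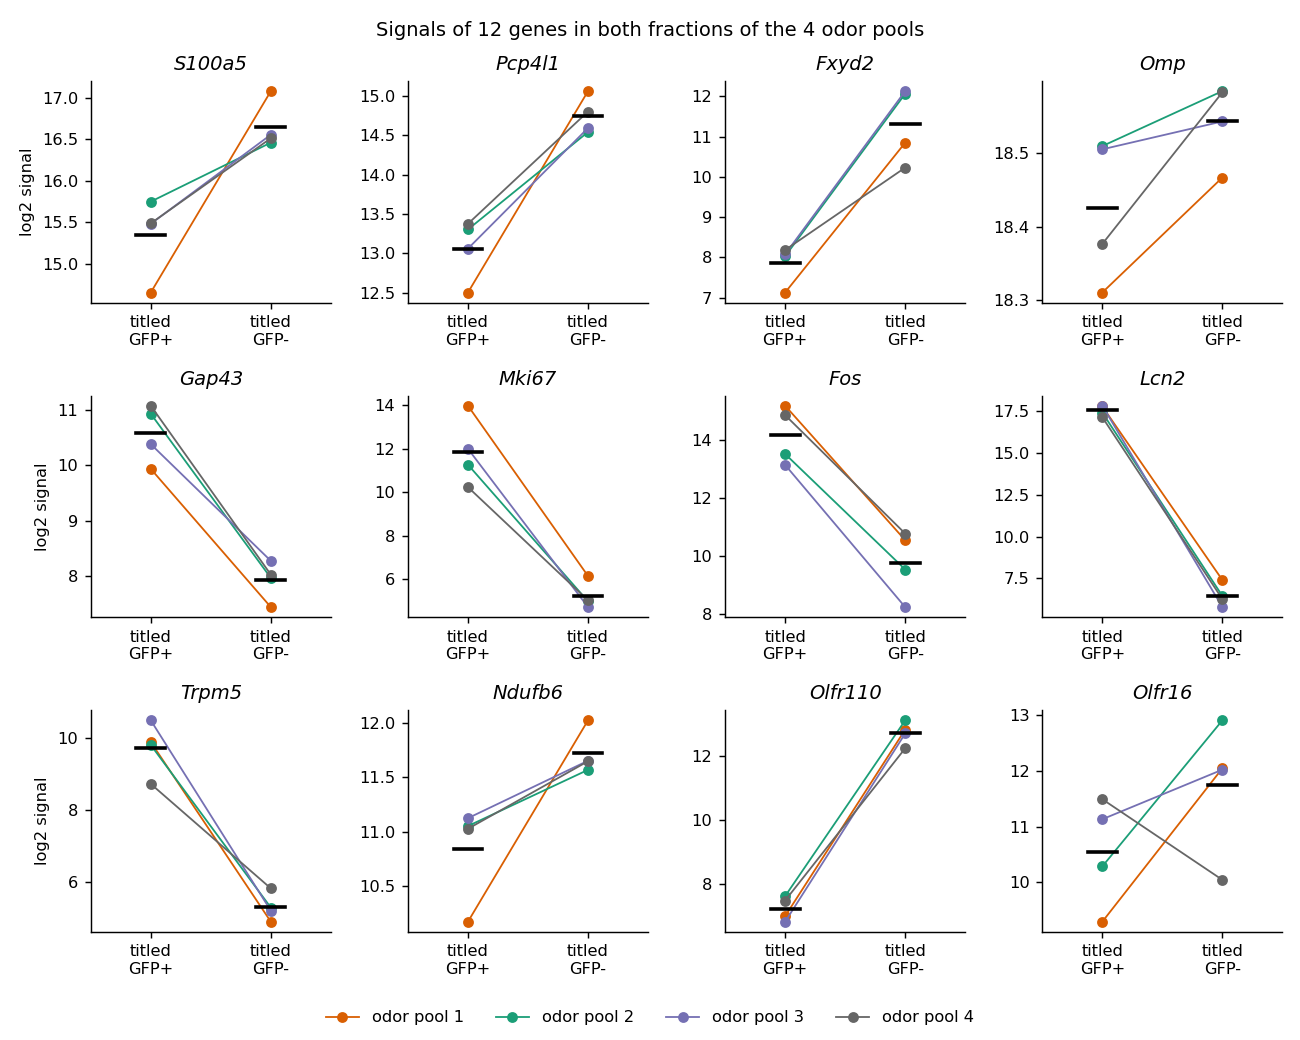
Log2 signal (vertical axis, a separate range for each gene) of 12 genes in the titled GFP+ and titled GFP- fraction of the 4 odor pools; each line joins the 2 fractions of 1 pool and black bars are group means. S100a5 is higher in titled GFP- in all 4 pools with the widest gap in pool 1, Lcn2 lies at 17.15 to 17.84 in titled GFP+ and 5.77 to 7.40 in titled GFP-, and the Olfr16 lines cross.

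Since activity-regulated transcription often runs through CREB and related factors, the 250 bases upstream of the annotated start are shown for a gene of each kind described next: S100a5 and Plcxd3 from the activity-dependent list, Chgb from the genes highest in titled GFP-, and Fos from those lower there. All lie on the plus strand of GRCm38.p6 (RefSeq), at chr3:90608272-90608521, chr15:4375241-4375490, chr2:132781392-132781641 and chr12:85473640-85473889. Capitals mark matches on either strand to the cAMP response element TGACGTCA or to its half-site TGACG, which is also contained in the full element.
S100a5: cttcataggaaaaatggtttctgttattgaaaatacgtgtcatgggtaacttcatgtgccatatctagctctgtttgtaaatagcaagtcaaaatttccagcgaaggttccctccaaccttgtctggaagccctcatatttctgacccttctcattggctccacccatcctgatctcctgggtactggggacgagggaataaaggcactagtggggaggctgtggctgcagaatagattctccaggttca
Plcxd3: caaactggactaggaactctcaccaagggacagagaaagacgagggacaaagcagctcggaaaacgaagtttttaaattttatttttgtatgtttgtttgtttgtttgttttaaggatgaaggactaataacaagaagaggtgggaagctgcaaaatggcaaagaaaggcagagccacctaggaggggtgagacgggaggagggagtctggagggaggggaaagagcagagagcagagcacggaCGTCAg
Chgb: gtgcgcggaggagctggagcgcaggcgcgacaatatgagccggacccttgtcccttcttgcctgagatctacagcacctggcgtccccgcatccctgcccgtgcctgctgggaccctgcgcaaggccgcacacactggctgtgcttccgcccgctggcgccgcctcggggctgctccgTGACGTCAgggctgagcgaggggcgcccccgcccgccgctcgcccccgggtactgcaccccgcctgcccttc
Fos: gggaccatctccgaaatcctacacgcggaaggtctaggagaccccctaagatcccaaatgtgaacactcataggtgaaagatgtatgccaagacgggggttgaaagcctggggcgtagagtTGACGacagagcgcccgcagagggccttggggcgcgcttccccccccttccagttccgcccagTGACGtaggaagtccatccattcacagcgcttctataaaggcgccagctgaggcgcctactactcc
The S100a5 window held neither motif, the Plcxd3 window 1 half-site on the minus strand, the Chgb window a full element and the Fos window 2 half-sites. Of the 7 activity-dependent genes listed here, 2 (Pcdh10 and Plcxd3) had a half-site and 0 a full element. Over all 32851 promoters of the table, 1.55% of such windows held the full element and 17.8% the half-site. A match is a run of letters, and binding was not measured.

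Of 19572 tested features, 4338 (22.2%) differed between the fractions at an adjusted p under 0.05, 2385 (12.2%) higher and 1953 (9.98%) lower in titled GFP-. The difference had the same sign in all 4 pools for 4189 of them. Outside the olfactory receptors, higher features moved little and lower features moved far. There 5 called features were above a difference of 2, among them the trace amine-associated receptors Taar4 and Taar9, and 619 were below -2. The split between the directions depended on the scaling. Centring arrays on the median of all features raised the median difference from 0.14 to 0.44 and gave 9658 higher and 1534 lower, and centring on the receptor median lowered it to -0.33 and gave 341 higher and 2449 lower. Without odor pool 1, 1238 were higher and 1451 lower, and 2572 (59.3%) of the 4338 calls were kept in the same direction. Without odor pool 3, 1449 were higher and 1547 lower, and with the 8 odor arrays fitted alone 1469 were higher and 1762 lower. Taking the pool as a block gave 2817 higher and 2131 lower. A total of 8842 features were below background on all 8 arrays, and 1060 of them were among the calls, where the size of a difference has little meaning. Where a gene was below background on all 4 arrays of 1 group only, its change is given as "at least N-fold", the brighter group's mean against the higher of background and the dim signal.

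**Figure D2:**
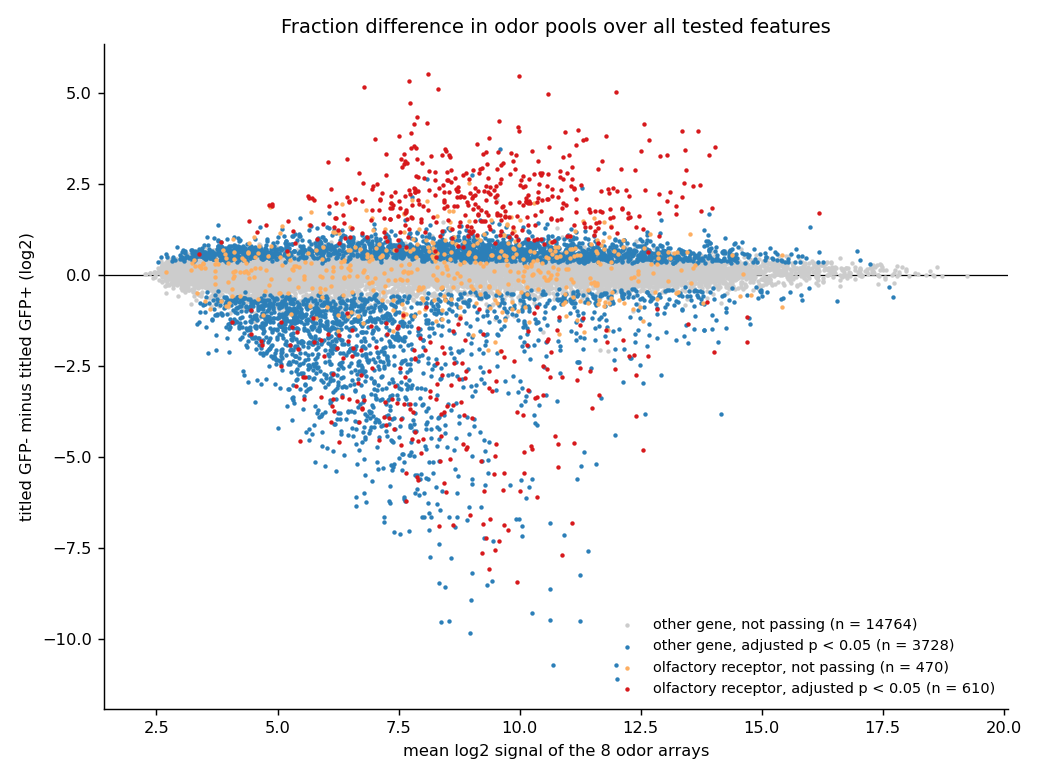
Mean log2 signal of the 8 odor arrays (horizontal) against the difference titled GFP- minus titled GFP+ (vertical, log2) for 19572 features; colours separate olfactory receptors from other genes and those passing adjusted p under 0.05 from the rest. Nearly all differences above 2 are receptors, and the long lower tail, down to -11.09, is mostly other genes.

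Olfactory receptors made up most of the wide positive differences. Of 1080 receptor genes (Olfr symbols without the pseudogene suffix), 406 (37.6%) rose and 204 (18.9%) fell in titled GFP-. Together these were 56.5%, against 20.2% of all other features. Among genes above background on all 8 arrays the shares were 53.4% of 472 receptors and 21.0% of 7681 others. In 605 of the 610 called receptors the sign was the same in all 4 pools, and 532 (87.2%) kept their call without odor pool 1. The receptor median difference was 0.57 (0.21 with dim genes at their bound), against 0.14 over all features. Under receptor-median centring 307 rose and 269 fell. Pools varied more for receptors than for other genes: the SD of the 4 pool differences had a median of 0.66 for receptors and 0.33 for the rest.

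Olfr110 had the largest positive difference among receptors measured in both groups, here and below meaning above background on at least 2 arrays of each. Its signal was 12.83, 13.12, 12.71 and 12.24 in titled GFP- and 7.01, 7.63, 6.83 and 7.50 in titled GFP+, a difference of 5.48 ± 0.23 (SE, n = 4; limma adjusted p = 8.50e-11). Its groups were more than 4 log2 units apart, and only 2 of the 4 titled GFP+ arrays were above background. Olfr536 was at 14.71, 14.29, 14.09 and 14.95 against 9.59, 9.11, 8.25 and 10.95, again without overlap, with a difference of 5.04 ± 0.44 (adjusted p = 4.18e-07). Olfr1099 was at 13.76, 13.04, 13.30 and 12.22 against 6.31, 7.73, 8.10 and 10.26. Its pool differences ran from 7.45 in pool 1 to 1.96 in pool 4, for a mean of 4.98 ± 0.61 and 4.16 without pool 1. The next 5 were Olfr849 (4.25), Olfr533 (4.16), Olfr101 (4.08), Olfr745 (3.98) and Olfr522 (3.97), each higher in all 4 pools and each with adjusted p at or below 0.00112. Below background on every titled GFP+ array, with bounds that have no order among them, were Olfr1093 (at least 12.2-fold higher in titled GFP-), Olfr372 (12.1), Olfr481 (8.62), Olfr860 (7.59) and Olfr494 (7.15).

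The receptors low in titled GFP- were further apart still. Olfr393 was at 7.73, 7.79, 6.58 and 8.60 in titled GFP- and 14.10, 14.32, 14.63 and 14.86 in titled GFP+, a difference of -6.80 ± 0.46 (limma adjusted p = 2.56e-08), with all titled GFP+ arrays within 1 log2 unit of each other. Olfr411 was at 6.69, 7.11, 6.80 and 7.57 against 11.85, 13.33, 13.16 and 13.52, a difference of -5.92 ± 0.36. Neither receptor's groups overlapped. The others of the 8 lowest were Olfr1178 (-5.45), Olfr1322 (-5.44), Olfr291 (-5.28), Olfr441 (-4.96), Olfr1030 (-4.87) and Olfr1395 (-4.82). Olfr1507 (MOR28), of the cluster next to the H enhancer on chromosome 14, was below background in titled GFP- at 4.93, 6.23, 5.58 and 6.18 and stood at 13.85, 14.12, 14.28 and 14.41 in titled GFP+, at least 121-fold lower in titled GFP- (adjusted p = 2.95e-10). Olfr99 was at least 72.4-fold, Olfr1384 at least 65.0-fold, Olfr460 at least 58.4-fold and Olfr794 at least 55.7-fold lower, in each case with every titled GFP- array below background. Each of these 13 receptors was lower in all 4 pools and kept its call with any odor pool left out.

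The receptors' share of calls in each direction varied with chromosome. On chromosome 16, 23 of 36 receptors rose and 4 fell (median 1.55), and on chromosome 14, 21 of 39 rose and 6 fell (median 1.85). On chromosome 9, 56 of 129 rose and 21 fell (median 0.99). On chromosome 10 the order turned, with 13 of 65 higher and 20 lower (median -0.23), and on chromosome 11 the counts were close, 22 and 21 of 78 (median -0.07). Chromosomes 2 and 7, with the most receptors, had 113 higher and 50 lower of 282, and 80 higher and 28 lower of 230, with medians of 0.61 and 0.61. Of 120 class I receptors, the family nearest to those of fish, 32 rose and 13 fell, and of 941 class II receptors 368 rose and 186 fell. Differences between chromosomes or classes were not tested, and neighbours in a cluster share their mice and arrays.

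**Figure D3:**
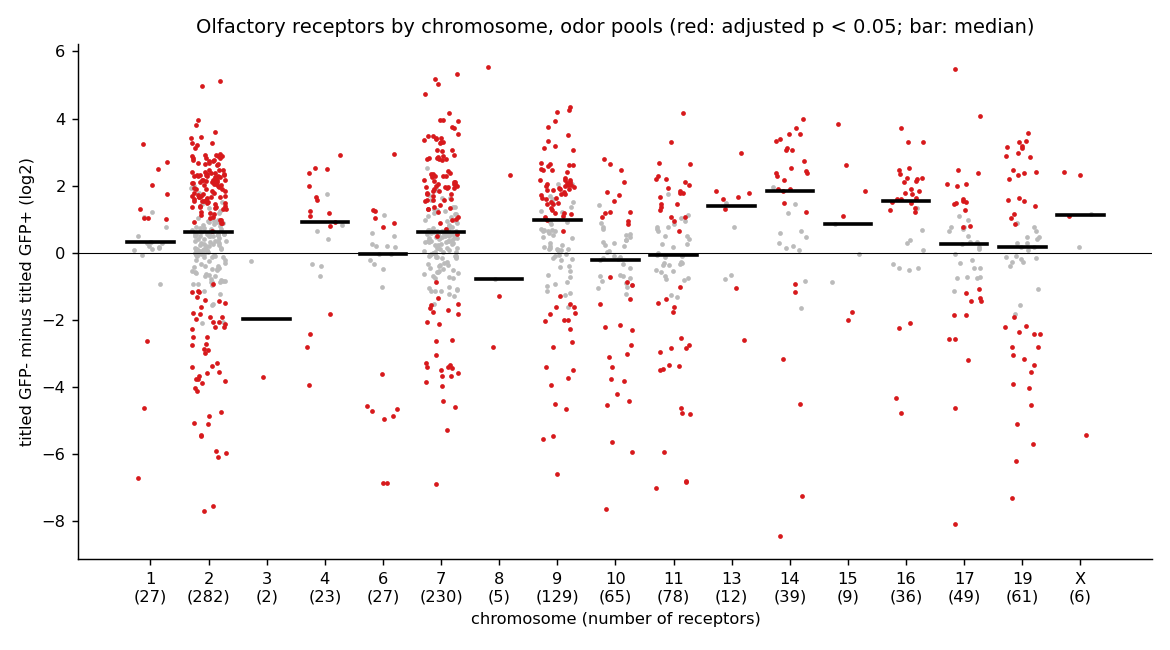
Difference titled GFP- minus titled GFP+ (log2) for 1080 olfactory receptors by chromosome, with the number of receptors in brackets; each point is 1 receptor, red points passed adjusted p under 0.05 and black bars are medians. Chromosomes 14 and 16 have medians of 1.85 and 1.55, chromosomes 10 and 11 medians just below 0, and every chromosome with over 20 receptors has called members on both sides.

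Olfr16 and Olfr2, receptors known for aldehyde ligands, did not pass the test. Olfr16 (MOR23), a receptor for the floral aldehyde lyral, was at 12.05, 12.91, 12.02 and 10.04 in titled GFP- and 9.29, 10.28, 11.13 and 11.49 in titled GFP+. The groups overlapped, and the pool differences of 2.75, 2.62, 0.89 and -1.45 included 1 of the opposite sign, in pool 4. The mean difference of 1.21 ± 0.58 did not pass (limma adjusted p = 0.152); without pool 4 it was 2.09 (adjusted p = 0.0125) and without pool 1 it was 0.69 (adjusted p = 0.523). Centring the arrays on the all-feature median gave 1.51 (adjusted p = 0.0387). In the vehicle pools the same difference was -2.28 ± 0.58 (adjusted p = 0.0118), with pool differences of -2.23, -3.39, -0.32 and -3.17. Olfr2 (I7), a receptor for octanal, was at 7.76, 7.56, 7.33 and 8.45 against 9.59, 7.68, 7.86 and 7.50, with overlap, and its difference of -0.38 ± 0.44 did not pass (adjusted p = 0.566) and turned to 0.10 without pool 1. Olfr774, listed for its interaction described at the end, was below background on all titled GFP+ arrays and at 8.22, 8.38, 8.23 and 7.86 in titled GFP-, at least 1.88-fold higher (adjusted p = 1.64e-05).

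The trace amine-associated receptors, a separate small family of amine detectors on chromosome 10, had 14 measured members. Of these 4 were higher (28.6%, against 12.2% of all features) and 1 lower (7.14%, against 9.98%). The median was 0.70, or 0 with dim genes at their bound, and 6 had a negative difference. Receptor-median centring gave 2 higher and 5 lower. Taar4, a receptor for phenylethylamine, was at 9.69, 11.40, 10.63 and 9.80 against 5.79, 7.60, 8.40 and 8.76, a difference of 2.74 ± 0.57 (limma adjusted p = 0.00242), and its lowest titled GFP- array was above its highest titled GFP+ array. Taar9 rose by 2.39 ± 0.75 (adjusted p = 0.031), a call lost without odor pool 1 (0.051), pool 2 (0.105) or pool 4 (0.0567). Taar7d and Taar7e are near-identical paralogs that may share signal. They were called in opposite directions, -0.90 and 1.16, and neither call held with every pool left out (Taar7d adjusted p = 0.101, 0.125 and 0.0613 without pools 1, 2 and 4; Taar7e 0.0584, 0.0823 and 0.0807 without pools 2, 3 and 4 and 0.0528 without pool 1). Without odor pool 1 the family had 1 member higher and 2 lower.

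Genes known to rise with activity in olfactory neurons were higher in titled GFP-, in 6 of 7 members (85.7%, against 12.2% of all features). The median was 1.09, against 0.14 over all features. Besides S100a5 the 6 were Pcp4l1, a calmodulin-related peptide, Lrrc3b, Plcxd3, and the adhesion molecules Kirrel2 and Pcdh10. Pcp4l1 was at 15.06, 14.54, 14.59 and 14.80 in titled GFP- and 12.50, 13.30, 13.06 and 13.38 in titled GFP+, without overlap, a difference of 1.69 ± 0.22 (limma adjusted p = 3.18e-05). Lrrc3b rose by 1.52 ± 0.38, with pool differences of 1.69, 1.31, 1.51 and 1.58, and Plcxd3 by 0.87 ± 0.17. Both were higher in all 4 pools. Kirrel2, which sorts axons of like activity, differed by 0.90 ± 0.26 (adjusted p = 0.0204) and lost its call without odor pool 1 (0.0714), 3 (0.0581) or 4 (0.0687). Pcdh10 differed by 1.09 ± 0.31 (adjusted p = 0.0193) and lost its call without pool 2 (0.0805), 3 (0.0621) or 4 (0.0551). Pcdh17 was at 0.61 ± 0.32 and did not pass (adjusted p = 0.182; it passed with the pool as a block). The median of the list by pool was 1.14, 1.24, 1.08 and 1.09; S100a5 and Pcp4l1 were widest in pool 1, at 2.43 and 2.56. Under receptor-median centring 2 of the 7 passed, both higher, with a median of 0.62. In the vehicle pools 6 of the 7 were also higher in titled GFP- (median 1.18).

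Outside the receptors, Fxyd2, a regulatory subunit of the sodium pump, had the largest positive difference of any gene measured in both groups. It was at 10.85, 12.06, 12.13 and 10.23 in titled GFP- and 7.13, 8.03, 8.08 and 8.18 in titled GFP+, without overlap, a difference of 3.46 ± 0.37 (limma adjusted p = 4.00e-06). Rfx4, a transcription factor of the RFX family, was at 1.53 ± 0.17, with pool differences of 1.52, 1.95, 1.31 and 1.34. Avp, the vasopressin precursor, rose by 1.51, Kcng1, a modulatory potassium channel subunit, by 1.45, and Chgb, the secretory granule protein chromogranin B, by 1.43. Rgs7, a regulator of G protein signalling, rose by 1.40, Adamdec1, a secreted protease, by 1.35, and Hs3st1, a heparan sulfate sulfotransferase, by 1.34. Pool 1 also had the widest difference for Pcp4l1 (2.56), Chgb (2.40) and Rgs7 (1.98), and 2 genes moved by over 1.5 times without it. Uqcr10, a subunit of respiratory complex III, had pool differences of 3.09, 0.50, 1.38 and 0.62, a mean of 1.40, and 0.84 (adjusted p = 0.0197) without pool 1. Tefm, the mitochondrial transcription elongation factor, had 2.92, 0.75, 1.08 and 0.73, a mean of 1.37, and 0.86 (adjusted p = 0.0039) without it. With Pcp4l1 and Lrrc3b these were the 12 highest, and all 12 kept their call with any odor pool left out. Of the called non-receptor genes below background in titled GFP+ and higher in all 4 pools, the 8 with the largest bounds were at 1.22-fold to 1.45-fold; Fam174b, 1700016D06Rik and Abca14 were the 3 of them whose calls held with each pool left out.

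Members of the transduction cascade rose in small steps or not at all. Of 15 measured, 4 rose (26.7%, against 12.2% of all features) and 1 fell (6.67%, against 9.98%). The median was 0.21, or -0.25 under receptor-median centring. Slc8a1, a sodium-calcium exchanger, was at 12.67, 12.25, 12.60 and 12.54 against 11.51, 11.71, 11.51 and 11.63, and Pde1c, the calmodulin-dependent phosphodiesterase that degrades ciliary cAMP, at 16.12, 16.11, 15.97 and 16.02 against 15.22, 15.41, 15.38 and 15.38. Neither overlapped between the fractions. Their differences were 0.93 ± 0.13 (limma adjusted p = 4.85e-05) and 0.71 ± 0.10 (adjusted p = 8.92e-05). Ano2, the chloride channel of transduction, differed by 0.41 ± 0.10 (adjusted p = 0.0104), lost its call without pool 3 (0.0514) and turned to -0.060 under receptor-median centring. Of 18 mature neuron markers and receptor chaperones, 2 rose (median 0.22), a share of 11.1% against 12.2% of all features, and 0 passed without pool 1. One was Slc17a6, the vesicular glutamate transporter VGLUT2, at 0.40 ± 0.11 (adjusted p = 0.0199), lost without pool 1 (0.0746) or 2 (0.123) and at -0.070 under receptor-median centring.

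Among synaptic, channel and surface genes most did not pass, and those that did were mostly higher in titled GFP- (12.2% of all features were higher). Of 19 synaptic vesicle and release genes 6 rose and 0 fell (median 0.28), among them Syn2, a synapsin, by 0.82 ± 0.16 (limma adjusted p = 0.00146) and Sv2b, a vesicle glycoprotein, by 0.54 ± 0.13 (adjusted p = 0.00589). Of 29 potassium channel genes 8 rose and 2 fell (median 0.27), 17 of them below background on all 8 arrays. Kcnmb3, an accessory subunit of the BK channel, was at 14.50, 14.42, 14.15 and 14.63 against 13.02, 13.10, 13.25 and 13.34, without overlap, a difference of 1.25 ± 0.12 (adjusted p = 1.72e-06). Kcnn2, the small-conductance channel SK2, rose by 0.88 ± 0.14. Clustered protocadherins, which give neurons a surface identity, had 8 of 20 higher and 0 lower (median 0.56), all 8 of the beta cluster, with Pcdhb14 at 0.94 ± 0.21 (adjusted p = 0.0044). Without odor pool 1, 5 of the 20 passed, and without pool 3, 4. Among 20 axon sorting and guidance molecules 4 rose and 1 fell (median 0.14, against 0.14 over all features), including Kirrel2 and Pcdh10 above, Sema7a by 0.60 ± 0.12 and Epha5 by 0.72 ± 0.21, the last lost without pool 2 (0.0998) or 3 (0.0599). Under receptor-median centring the synaptic, channel and guidance medians were -0.18, -0.19 and -0.32, and the protocadherin median was 0.094.

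Respiratory chain genes gave a large count that fell most when odor pool 1 was the pool left out. Of 85 oxidative phosphorylation genes, 45 (52.9%, against 12.2% of all features) rose and 1 fell (1.18%, against 9.98%). The median was 0.58, against 0.14 over all features. By pool, the median of the list was 1.40, 0.24, 0.41 and 0.27. The mean signal of the list was 11.82 to 12.09 in titled GFP- and 10.74 to 11.62 in titled GFP+, and the lowest of these was the titled GFP+ array of pool 1. Ndufb6, of complex I, was at 12.02, 11.57, 11.65 and 11.65 against 10.17, 11.05, 11.13 and 11.03, and Ndufv3 at 9.68, 9.66, 9.48 and 9.51 against 7.43, 8.73, 8.79 and 8.89, both without overlap and with pool 1 farthest apart. Ndufb6 rose by 0.88 ± 0.19 (limma adjusted p = 0.00395), Ndufv3 by 1.12 ± 0.25 and Ndufb7 by 1.01 ± 0.22, and without pool 1 these were 0.56, 0.75 and 0.65. Without pool 1, 11 of the 85 rose and 0 fell (median 0.31), against 1238 higher of all 19572 features (median 0.13). Without pool 3, 26 of the 85 rose and 1 fell. With the 8 odor arrays fitted alone 13 rose and 1 fell, and under receptor-median centring 0 rose and 2 fell. In the vehicle pools 4 of the 85 rose and 1 fell (median 0.29), while 7.05% of all features rose there. An unadjusted interaction p under 0.05 (limma) was found for 3 of the 85. Cytosolic ribosomal proteins, many of which have near-identical pseudogenes, had 0 of 55 higher and 3 lower (5.45%, against 9.98% of all features). The median was -0.12, with pool medians of 0.58, -0.55, -0.32 and -0.25, so that pool 1 ran opposite to the rest. Without pool 1, 10 of the 55 fell. Rplp0 fell by 1.30 and Rps20 by 0.59, the latter lost without pool 2 (0.0755) or 4 (0.0686) or when arrays were centred on the median of all features. In the vehicle pools 0 of the 55 ribosomal proteins rose and 16 fell (median -0.49).

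The count of ciliary transport genes also fell most when odor pool 1 was the pool left out, but not only then. Among 28 genes of intraflagellar transport, the BBSome and cilia motors, 11 rose (39.3%, against 12.2% of all features) and 0 fell. The median was 0.33, against 0.14 over all features. The count higher was 1 without odor pool 1, 4 without pool 3 and 3 with the 8 odor arrays fitted alone. Over all 19572 features the counts higher in these settings were 1238, 1449 and 1469. The subunit Ttc8 (BBS8) rose by 0.66 ± 0.16 (limma adjusted p = 0.00638) and by 0.45 (0.0373) without pool 1. Bbs5 rose by 0.76 ± 0.20 (adjusted p = 0.0138) and lost its call without pool 1 (0.0889). The count of motile cilia markers was unchanged without pool 1. These 13 markers had 4 higher (30.8%, against 12.2% of all features) and 0 lower, and also 4 higher without pool 1 (medians 0.35 and 0.47). They included the radial spoke protein Rsph1, with pool differences of 1.98, 1.12, 0.95 and 0.17, and the tektin Tekt1, with 1.43, 0.69, 0.76 and 0.44. Under receptor-median centring 0 of the 28 and 1 of the 13 passed.

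**Figure D4:**
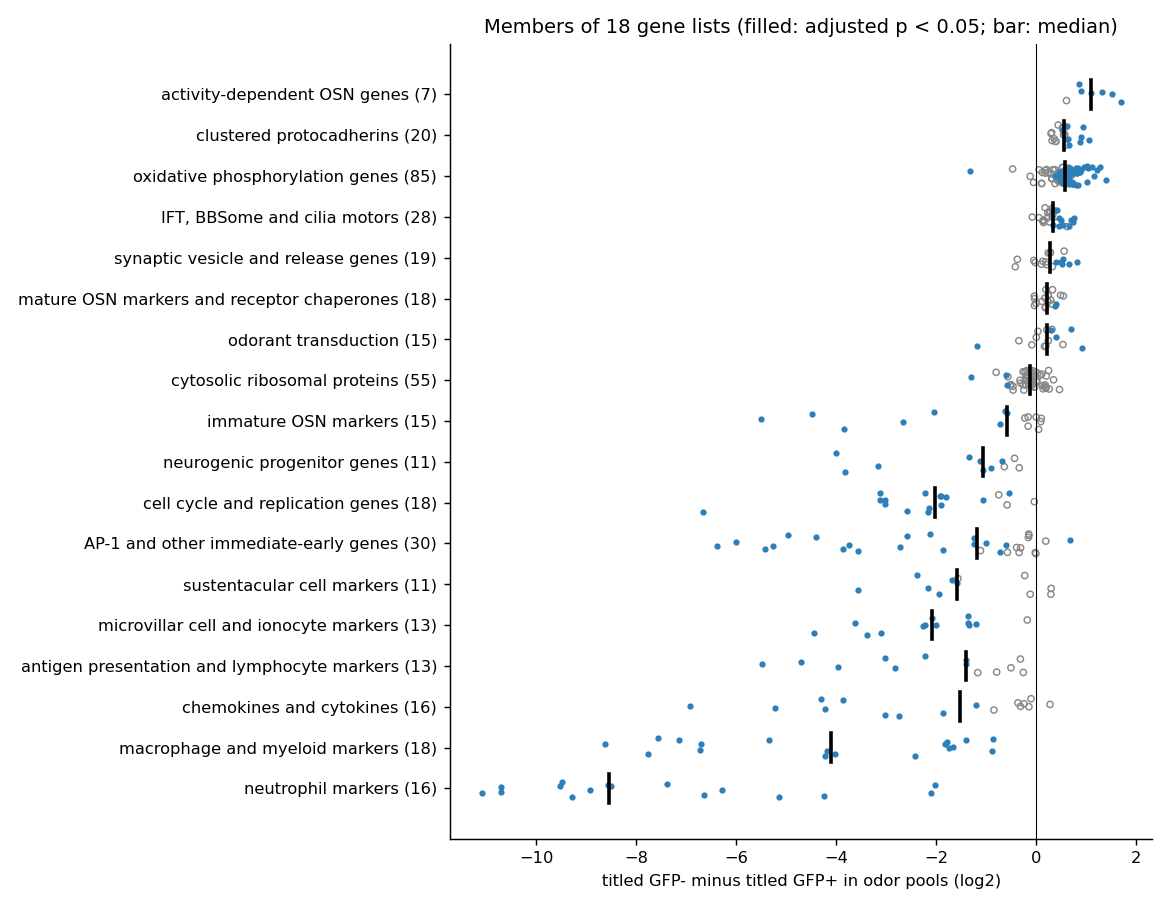
Difference titled GFP- minus titled GFP+ in the odor pools (horizontal, log2) for the members of 18 gene lists, with the number of measured members in brackets; filled points passed adjusted p under 0.05, open points did not, and black bars are medians. The medians run from 1.09 for activity-dependent genes to -8.54 for neutrophil markers.

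The markers of immature neurons that passed were lower in titled GFP-. Gap43, the growth cone protein of immature neurons, was at 7.43, 7.96, 8.27 and 8.02 in titled GFP- and 9.94, 10.94, 10.39 and 11.08 in titled GFP+, without overlap, a difference of -2.67 ± 0.31 (limma adjusted p = 8.14e-06). Of 15 such markers 8 fell (53.3%, against 9.98% of all features) and 0 rose. The median was -0.58, or -0.23 with dim genes at their bound. Gng8, the G protein gamma subunit of immature neurons, was below background in titled GFP- (5.94 to 6.36) and at 9.86 to 11.08 in titled GFP+, at least 10.2-fold lower. Cxcr4, a chemokine receptor of progenitors and also of leukocytes, was at least 10.4-fold lower. Dpysl3, a growth cone phosphoprotein, fell by 3.85 and Stmn1, a microtubule regulator of growing and dividing cells, by 2.04.

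The progenitor and cell cycle genes that passed showed the same direction. Mki67, expressed in cycling cells, was below background on all titled GFP- arrays (6.14, 4.97, 4.71 and 5.02) and at 13.97, 11.26, 11.99 and 10.23 in titled GFP+, with pool 1 highest and pool 4 lowest. It was at least 24.6-fold lower in titled GFP- (limma adjusted p = 1.37e-06). Of 18 cell cycle and replication genes 15 fell (83.3%, against 9.98% of all features) and 0 rose. The median was -2.03, or -0.56 with dim genes at their bound. Ccnb2, a mitotic cyclin, was at least 4.56-fold and Rrm2, a subunit of ribonucleotide reductase, at least 4.13-fold lower. Rrm2 was at 10.91, 8.85, 8.90 and 8.49 in titled GFP+, highest in pool 1. Of 11 progenitor genes 8 fell (72.7%, against 9.98% of all features), 5 of these 8 being below background in both groups. Kit, the stem cell factor receptor, was at least 2.78-fold and Tex15 at least 5.9-fold lower, and Sox11, of early neurons, was lower by 3.17. The 6 horizontal basal cell markers were below background on all 8 arrays. Among 19 regulators of receptor choice 2 fell (10.5%, against 9.98% of all features): Lbr, the lamin B receptor, by 1.77, and Nfia, a nuclear factor, by 0.56 (adjusted p = 0.0358), a call lost without pool 1 (0.142), 2 (0.0682) or 4 (0.0701).

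Most listed immediate-early genes, which neurons and many other cells transcribe within minutes of stimulation or tissue dissociation, were lower in titled GFP-. Fos was at 10.55, 9.54, 8.24 and 10.78 in titled GFP- and 15.18, 13.52, 13.14 and 14.85 in titled GFP+. In both groups pools 1 and 4 were higher than pools 2 and 3, and the groups did not overlap. The difference was -4.40 ± 0.58 (limma adjusted p = 3.68e-05), while S100a5 ran the other way. Of 30 listed genes 18 fell (60%, against 9.98% of all features) and 1 rose (3.33%, against 12.2%). The median was -1.17, or -0.87 with dim genes at their bound, and 5 of the 30 were below background on all 8 arrays. Egr1 fell by 5.26, Egr2 by at least 35.3-fold, the antiproliferative gene Btg2 by at least 28.3-fold, and Zfp36, which destabilises cytokine mRNAs, by at least 21.9-fold. Leukocytes also transcribe these genes, and their markers, given next, were higher in titled GFP+ on every array; the part of leukocytes in this difference was not tested.

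The widest difference of any tested feature was that of a neutrophil gene. Lcn2, an iron-scavenging granule protein, was at 7.40, 6.44, 5.77 and 6.25 in titled GFP-, below background, and 17.80, 17.43, 17.84 and 17.15 in titled GFP+, at least 1275-fold lower in titled GFP- (limma adjusted p = 3.61e-12). All 16 neutrophil markers fell (median -8.54, -5.86 with dim genes at their bound), and 15 of them were below background on every titled GFP- array. Their mean signal was 5.28 to 5.71 in titled GFP- and 11.99 to 13.69 in titled GFP+. Retnlg was at least 445-fold lower, Chil3, a chitinase-like protein, at least 437-fold, and S100a8 and S100a9, the calprotectin subunits, at least 279-fold and 202-fold. Ngp, a granule protein, was above background on 1 titled GFP- array, that of pool 1, and fell by 10.71. All 18 macrophage and myeloid markers fell too (16 to 17 with 1 odor pool left out; 6 of the 18 were below background on all 8 arrays), from a mean of 8.96 to 10.50 in titled GFP+ to 5.12 to 6.15. Spi1, the myeloid transcription factor PU.1, was at least 206-fold lower and Itgam, the CD11b integrin, at least 37.5-fold, while Fcer1g, an Fc receptor chain, was at least 32.8-fold lower. Ly6c2 and the inhibitory receptor Lilrb4a were at least 101-fold and 84.7-fold lower.

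The lowest differences among genes measured in both groups included Lyz2 and Cybb of the macrophage and myeloid list, beside genes of other lists or of none. Which cells these signals came from was not tested. Ly6e, a surface protein of lymphoid and other cells, fell by 8.23, the lysozyme Lyz2 by 7.57, and Cybb, the phagocyte oxidase subunit, by 7.13. S100a11 fell by 6.80, and Arhgdib, expressed in blood cells, by 6.14. The G protein subunit Gnai2 fell by 5.62, the leukocyte plastin Lcp1 by 5.60, and Arpc1b of the actin-nucleating Arp2/3 complex by 5.59. B2m, the MHC class I light chain, fell by 5.19 and Aldh2, an aldehyde dehydrogenase, by 4.85. With Egr1 and Fos these were the 12 lowest among genes above background on at least 2 arrays of each group, and each was lower in all 4 pools. Of 13 antigen presentation and lymphocyte markers 8 fell (61.5%, against 9.98% of all features), 3 of these 8 being below background in both groups. H2-Aa and Cd52 fell by at least 10.6-fold and 10.1-fold and H2-Ab1 by 3.96. Of 16 chemokines and cytokines 9 fell (56.2%), 2 of these 9 being below background in both groups. Il1b fell by at least 29.4-fold and Ccl9 by at least 6.54-fold. Interferon-stimulated genes were split, 2 higher and 2 lower of 12 (16.7% each, against 12.2% and 9.98% of all features). Ifit1 was up by 1.06 and Bst2 at least 1.48-fold lower. Of these 12, 7 were below background on all 8 arrays. Of 5 erythroid markers 4 fell (80%, against 9.98% of all features), and 2 fell without pool 1. The anion exchanger Slc4a1 fell by 2.21 and the membrane protein Rhag was at least 1.6-fold lower.

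Most microvillar cell markers were lower in titled GFP- as well. Trpm5, the channel of tuft-like microvillar cells, was below background there (4.88, 5.27, 5.19 and 5.81) and at 9.90, 9.81, 10.50 and 8.73 in titled GFP+, at least 5.64-fold lower (limma adjusted p = 1.41e-06). Of 13 microvillar and ionocyte markers 12 fell (92.3%, against 9.98% of all features), also 12 without pool 1. Of the 12, 3 were below background in both groups. The median was -2.08, or 0 with dim genes at their bound. Foxi1, the ionocyte transcription factor, fell by at least 5.27-fold, the chloride channel Cftr by at least 3.54-fold and Plcg2 by at least 2.35-fold. Of 11 sustentacular markers 6 fell (54.5%, against 9.98% of all features). This count was 5, 3, 4 and 6 without pools 1, 2, 3 and 4. The keratins Krt18 and Krt8 were at least 5.16-fold and 1.77-fold lower, while the odorant-metabolising enzyme Cyp2a5 was well above background in both fractions, at 12.45, 11.22, 10.21 and 12.80 against 13.73, 13.49, 12.82 and 14.39. The highest titled GFP- array lay just below the lowest titled GFP+ array, and the Cyp2a5 difference of -1.94 ± 0.54 (adjusted p = 0.0176) was lost without pool 2 (0.0758). In the Bowman gland list 2 of 9 fell (22.2%, against 9.98% of all features), Sox9 by at least 9.73-fold and Lyz1 by at least 2.48-fold. Of the 9, 5 had a positive difference, 5 were below background on all 8 arrays and the median was 0.28. Apoe, of glia and macrophages, fell by 2.76 and the pericyte gene Rgs5 by 5.08; the glial and the endothelial and mesenchymal lists each had 2 lower, of 6 and 14 (33.3% and 14.3%, against 9.98% of all features), with medians of -0.092 and 0.031 and with 5 and 13 members below background on all 8 arrays. Pde2a (-3.54) was the single member of 5 to fall among guanylyl cyclase D neuron markers (20%, against 9.98% of all features). Of 4 vomeronasal markers 2 fell (50%), Gnai2 among them.

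The shares of calls in the unfolded protein response and cholesterol synthesis lists were near or below those of all features. Of 14 unfolded protein response genes 2 rose (14.3%, against 12.2% of all features). Dnajb11 rose by 0.85, with pool differences of 1.74, 0.17, 0.67 and 0.80. Heat shock genes had 0 of 9 past the threshold, and 1 higher and 3 lower with the pool as a block. Cholesterol synthesis genes had 2 higher and 1 lower of 18 (11.1% and 5.56%, against 12.2% and 9.98% of all features). Among them were Ebp at 0.66 and the feedback regulator Insig1 at -1.64. Among 13 apoptosis genes and p53 targets 4 fell (30.8%, against 9.98% of all features). They included Casp8, by at least 13.0-fold, and the survival gene Mcl1, by 1.84.

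The vehicle pools, which share no array with the odor pools, gave 3302 calls (16.9%), 1380 (7.05%) higher and 1922 (9.82%) lower, and 2138 calls without vehicle pool 1. Of these, 2455 were called in the same direction in the odor pools, 74.3% of the vehicle calls and 56.6% of the odor calls, and 0 in the opposite direction. For receptors 534 were shared, 91.8% of 582 vehicle and 87.5% of 610 odor calls. The test of the difference between the 2 fraction differences gave 0 calls of 19572 (limma interaction, adjusted p under 0.05; 0%), and 739 features (3.78%) at an unadjusted p under 0.05. Among receptors 18 had an unadjusted p under 0.05. Olfr16, at an interaction of 3.48 ± 0.83, and Olfr774, at 1.55 ± 0.36 with 0.55 ± 0.26 in the vehicle pools, did not pass (adjusted p = 1 and 1; unadjusted p = 6.46e-04 and 5.74e-04). The other genes of smallest p, none passing, were Dnmt3b (1.32), Vmn1r250 (1.11), Skint5 (-1.05) and Hsd17b3 (-0.74), all below background on every odor array. S100a5 had an interaction of 0.32 ± 0.28 (adjusted p = 1).

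**Figure D5:**
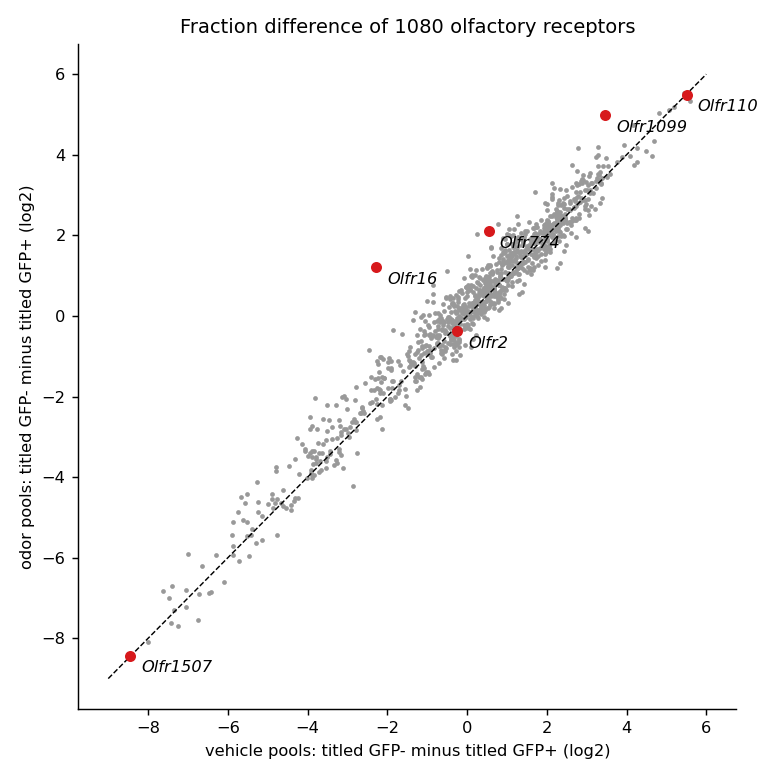
Difference titled GFP- minus titled GFP+ (log2) of 1080 olfactory receptors in the vehicle pools (horizontal) and the odor pools (vertical); each point is 1 receptor, red points are labelled and the dashed line marks equal differences. Most points lie along the line; Olfr16 is at -2.28 and 1.21, and its interaction did not pass.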

How the data were processed

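Per the labels, total RNA of sorted cells (50 to 100 ng) was labelled with biotin and hybridised to 1-colour Clariom S arrays. The authors deposited 1 log2 signal value per probe set and array, made with Affymetrix Expression Console per the submitters' processing notes; the background correction and normalization used are not given in the sources used here. Of 28846 entries, the 19572 with 1 gene symbol in the platform annotation (19505 genes) were tested without further scaling; chromosomes are those in the probe set names. limma 3.58.1 in R 4.3.3 (lmFit, eBayes) fitted the means of 4 groups over all 16 arrays, so vehicle arrays add to the estimate of spread, with contrasts for the fraction difference in odor pools, in vehicle pools and between them, and Benjamini-Hochberg adjustment over all features at 0.05. It was tested on simulated data.

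Replicate numbers were taken to pair the fractions, as 24 mice in pools of 3 cannot fill 16 arrays unless fractions share mice. Deviations from the group means correlated at 0.188, 0.0957, 0.215 and 0.245 in odor pools 1 to 4. How the cells of a pool were split for sorting is not stated. The p-values of the main fit rest on the spread between arrays within the 4 groups, pooled over all 16 arrays. That fit has no term for the pool. The 4 arrays per group limit the precision.

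The named genes follow a rule: the 8 highest and 8 lowest receptors and 12 highest and 12 lowest other genes with the same sign in all pools and signal above background on at least 2 arrays of each group; the 5 receptors and 8 other genes per side with the largest bounds; 7 preset genes; up to 4 members per gene list; and the 5 smallest interaction p. Members and lists were chosen with earlier results of these data known. Promoters are from RefSeq GRCm38.p6; coordinates of the probe sets are not used. A list of histone genes matched 0 symbols and was not used. Alternatives were quantile normalization, centring on the median of all features or of receptors, the pool as a block, 2 filters on dim features, odor arrays alone, a trended robust fit, and leaving out each pool.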

Additional observations from a re-analysis of the deposited data

Results flagged for a closer look

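Some values lay far from the other 3 arrays of their group by Dixon's test. Among 323 groups of 4 values examined for the genes and list medians above, 16 such values were found. That is near the share of about 1 in 20 that chance alone gives. The titled GFP+ array of odor pool 1 gave 7 of the 16. There, Fxyd2 was at 7.13, against 8.03 to 8.18 on the other titled GFP+ arrays, Bbs5 at 9.11, against 9.97 to 10.11, Ndufb6 at 10.17, against 11.03 to 11.13, and Ndufv3 at 7.43, against 8.73 to 8.89. On the same array 3 genes were high: Nfia at 13.02, against 12.14 to 12.22, Rrm2 at 10.91, against 8.49 to 8.90, and Hsd17b3, below background, at 4.71, against 4.48 to 4.50. The median difference of the oxidative phosphorylation genes in pool 1 was 1.40, against 0.24 to 0.41 in the other pools.

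In titled GFP-, S100a5 was high in pool 1, at 17.08, against 16.46 to 16.56, and Olfr441 low there, at 5.41, against 7.42 to 7.73. Pool 2 had Ano2 at 17.11, against 17.27 to 17.29, and 2 genes below background, Cftr at 5.39, against 6.10 to 6.20, and Bst2 at 6.82, against 6.11 to 6.21. Hs3st1 in pool 3 was at 9.52, against 10.60 to 10.76, and Krt18 in pool 4, below background, at 6.32, against 5.94 to 5.98. Lyz1 in titled GFP+ pool 4 was at 7.98, against 8.67 to 8.79.

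For 3 genes all 4 odor pools differed one way and all 4 vehicle pools the other way. The difference between odor and vehicle was 1.32 for Dnmt3b, 1.11 for Vmn1r250 and -0.74 for Hsd17b3. None passed the limma interaction test (adjusted p = 1 for each), and all 3 were below background on every odor array.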

How the results depend on the processing

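The count of 4338 fraction differences in the odor pools became 11192 when arrays were centred on the median of all features and 2790 when centred on the receptor median, with 9658 and 341 higher. Fitting the odor arrays alone gave 1469 higher, and keeping features above background on at least 4 odor arrays gave 1104 lower, against 1953. With 1 pool left out the calls ranged from 2689 to 4255 and the higher calls from 1238 to 2270. The vehicle count of 3302 became 13985 and 2144 under the same centrings and 1977 with the filter on dim features, and ranged from 2138 to 3867 with 1 pool left out. The causes were not tested. With the replicate number as a block (pairing the fractions of a pool) the odor count was 4948, and no call of a named gene was lost. The interaction gave 0 calls under every setting that was run.

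Over all features, 300 of the 4338 calls changed sign under receptor-median centring. Among the genes named, a few changed sign, none of them past the threshold on the turned side. With arrays centred on the receptor median these were Ano2 (-0.060), Omp (-0.35) and Slc17a6 (-0.070); with the median of all features, Skint5 (0.19) and Hsd17b3 (0.12). Olfr2 ranged from -0.82 to 0.10 with 1 pool left out. Of the 143 genes named, 137 passed; 123 of these kept the call with each odor pool left out and 100 under every setting. Centring on the median of all features gave calls to Omp, Olfr16 and Pcdh17 (0.91, adjusted p = 0.0266). Receptor-median centring lost 31 calls without a change of sign. Signals below background limit what can be said of 8842 features.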
